A study of Mus musculus with 15 samples.

Results

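This is an account of 10 genes of the AP-1 and immediate early response in the embryonic mouse heart: the Fos family members Fos and Fosb, the Jun family members Jun, Junb and Jund, the related factor Atf3, the zinc finger factors Egr1 and Egr2, the nuclear protein gene Ier2, and Myc. The members were found by symbol. All 10 were found among the 55335 gene identifiers of the deposited table. RNA sequencing was done on hearts collected at E14.5 from 3 genotypes: 4 libraries labelled Adamts16+/-, carrying a knockout allele, 4 labelled Adamts16+/H355Q, carrying a mutant allele, and 7 labelled WT. Both changed genotypes are heterozygous, so each keeps a normal copy of Adamts16, a gene for a secreted matrix metalloprotease. The study compared these hearts for the effect of the changed alleles on gene expression. The labels do not state the strain, the sex, or whether a library held 1 heart or several, so n counts libraries and p-values measure the spread between them.

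Immediate early genes are transcribed within minutes of a stimulus such as a growth factor, stretch or cell stress, without new protein synthesis, and their mRNAs are short-lived. Kinases of the MAPK pathway act on factors such as SRF with its ELK partners, and on CREB, which are already bound at their promoters. Fos proteins have to pair with a Jun protein to bind DNA as AP-1, whereas Jun proteins can also pair with each other. In the heart these genes are known as an early response to haemodynamic load, and tissue handling is known to induce them in many tissues.

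The promoters of 4 members are shown because they hold letters that CREB, ATF and AP-1 proteins are known to bind. CREB and ATF factors bind the cyclic AMP response element, TGACGTCA, or its shorter core TGACG, and Jun with ATF factors binds variants of it. The sequences come from RefSeq on the build GRCm38.p6, and each ends at the base before the RefSeq start of the gene. Capitals mark TGACG (Fos, Junb), TGACATCA (Jun) and TTACGTCA (Atf3), and the last 2 were chosen after these sequences were read.
Fos, chr12:85473770-85473889, plus strand: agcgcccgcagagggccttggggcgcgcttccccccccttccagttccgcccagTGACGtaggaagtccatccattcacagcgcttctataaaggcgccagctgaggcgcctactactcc
Jun, chr4:95052223-95052342, minus strand: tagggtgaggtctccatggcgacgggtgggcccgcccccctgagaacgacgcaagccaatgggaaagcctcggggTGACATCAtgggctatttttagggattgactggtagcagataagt
Junb, chr8:84978749-84978868, minus strand: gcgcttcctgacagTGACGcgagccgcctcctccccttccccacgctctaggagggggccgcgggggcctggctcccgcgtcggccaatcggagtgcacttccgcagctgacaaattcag
Atf3, chr1:191183334-191183453, minus strand: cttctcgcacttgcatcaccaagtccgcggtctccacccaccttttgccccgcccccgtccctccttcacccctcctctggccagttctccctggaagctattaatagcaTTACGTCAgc
The capitals begin 66 bases before the start in Fos, 45 in Jun, 106 in Junb and 10 in Atf3, whose RefSeq start lies inside a longer transcript of the gene annotation. Over 250 bases before the start and on both strands, TGACG was present in 17.8% of 32851 RefSeq promoters, TGACATCA in 2.93% and TTACGTCA, which contains the reverse complement of TGACG, in 0.447%. Of the members read but not shown, Fosb held TGACG 60 bases before its start, and Egr2 held it before some of its starts. Jund held none of the letters named here. A match is a description of the letters and does not show that a factor is bound in these hearts.

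Values are FPKM, fragment numbers scaled by gene length and by library depth. The low values of long genes imply 37.0 to 48.0 M fragments per Adamts16+/- library, 51.2 to 58.0 M per Adamts16+/H355Q library and 41.4 to 56.0 M per WT library. Adamts16 itself was at 0.0635 to 0.235 FPKM in Adamts16+/- libraries, 0.0677 to 0.125 FPKM in Adamts16+/H355Q libraries and 0.0324 to 0.235 FPKM in WT libraries, so its level does not check the labels. The heart label was checked with 6 cardiomyocyte genes, Tnnt2, Myh6, Myh7, Actc1, Actn2 and Ttn, whose summed level was 6597 to 8722 FPKM in Adamts16+/- libraries, 6659 to 8386 FPKM in Adamts16+/H355Q libraries and 6552 to 8751 FPKM in WT libraries. WT libraries 5 to 7 stand apart from WT libraries 1 to 4 in their expression, not in any label, so results are also given without them.

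Across all 15 libraries, Jund was the most abundant member and Fosb the least. Jund, the Jun protein that most resting cells keep, averaged 25.7 FPKM. Jun followed at 14.3, Ier2 at 9.28, Myc at 4.56, Atf3 at 4.29, Egr1 at 3.11, Junb at 1.65 and Fos at 1.61 FPKM. Egr2, known for hindbrain segmentation and the Schwann cell, averaged 0.187 FPKM and Fosb 0.1005 FPKM, so neither reached the minimum mean of 0.5 FPKM for the test across all genes. FPKM is scaled by gene length, so these levels can be set side by side. Most neighbours in this order kept it in 15 of 15 libraries. The exceptions were Myc over Atf3 and Junb over Fos, each in 10 of 15 libraries, and Atf3 over Egr1, in 13 of 15.

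**Figure D1:**
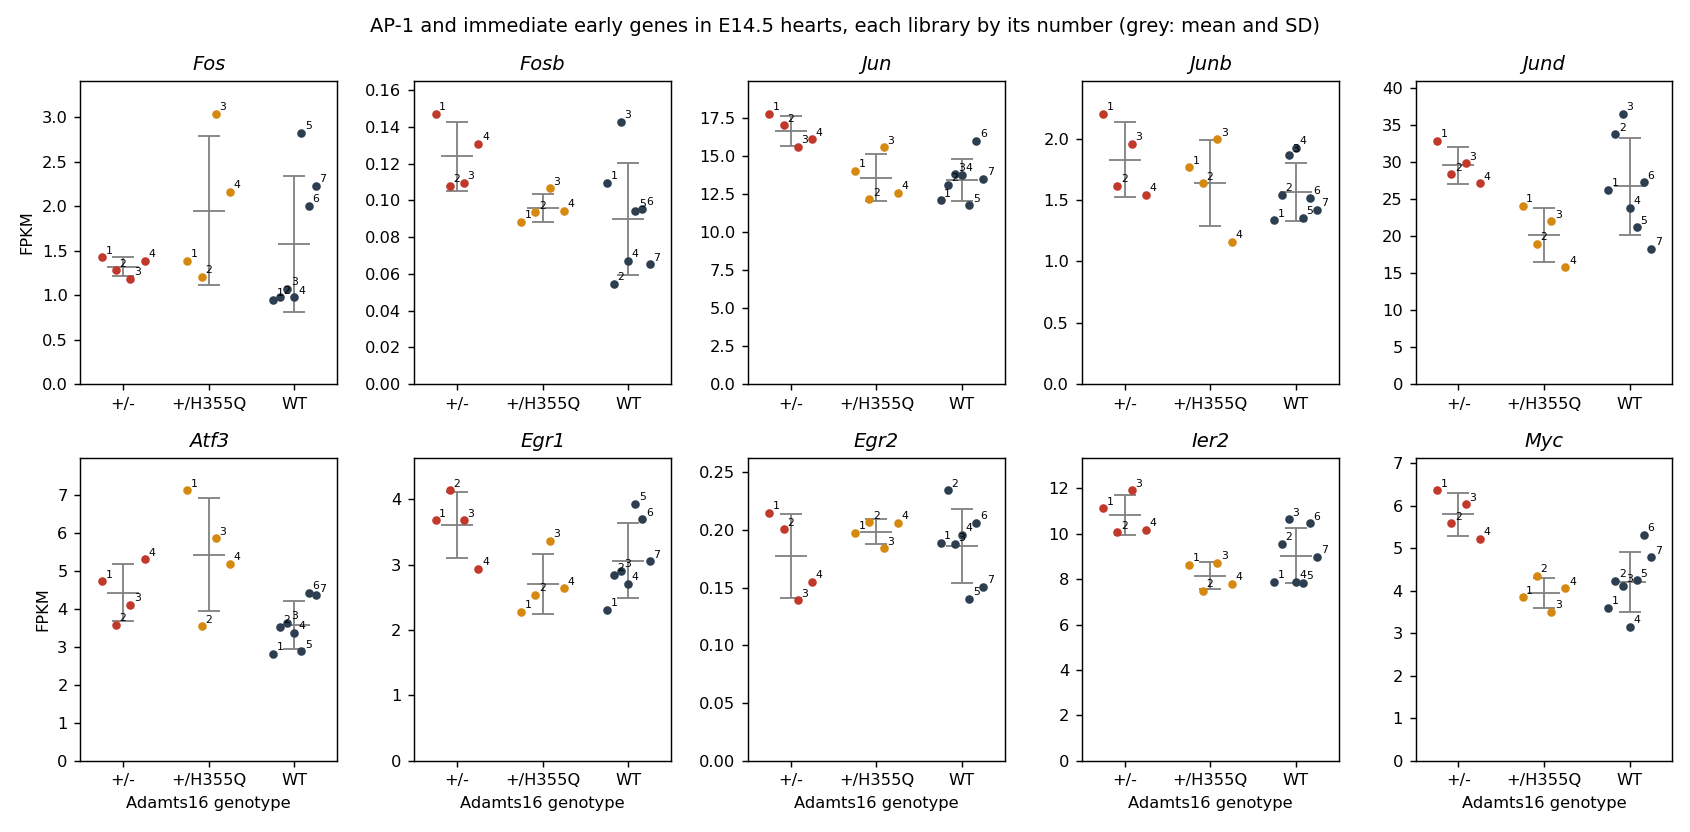
FPKM of each of the 10 genes (vertical axes from 0) in Adamts16+/-, Adamts16+/H355Q and WT hearts, with 1 numbered point per library and the mean and SD in grey. Fos splits the WT libraries into numbers 1 to 4 (0.949 to 1.07 FPKM) and numbers 5 to 7 (2.01 to 2.83 FPKM), while Myc lies at 5.22 to 6.36 FPKM in the Adamts16+/- libraries.

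In Adamts16+/- hearts Myc rose by 0.43 ± 0.11 on the log2 scale (SE), the only member that passed the test against WT. Genes were tested with limma on log2(FPKM + 0.5), with p-values adjusted over the 15172 genes that reached the filter, and a call is an adjusted p under 0.05. The added 0.5 makes fold changes of low genes too small. Of the 8 members tested 1 was higher and 0 were lower. Over all tested genes 2.75% were called, 1.57% higher and 1.18% lower, or 238 and 179 genes. Under median of ratios scaling the split was 170 higher and 207 lower, and under quantile normalization 192 higher and 241 lower. The libraries of both genotypes overlapped in all 10 members, and did not overlap in 5.79% of tested genes. With 1 library left out, the number of all genes called ranged from 42, without Adamts16+/- library 1, to 463, without WT library 4. The median log2 difference of the 8 was 0.23, against 0.012 over all genes, with 7 of 8 above 0.

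Myc encodes a factor that pairs with MAX and drives ribosome production and cell growth. Its level was 6.36, 5.58, 6.03 and 5.22 FPKM across Adamts16+/- libraries 1 to 4, against 3.15, 4.24 and 5.32 FPKM (lowest, median and highest of 7) in WT libraries. Only the highest WT library, library 6, lay above the lowest Adamts16+/- library. The means were 5.80 ± 0.50 FPKM (SD, n = 4) in Adamts16+/- hearts and 4.21 ± 0.71 FPKM (SD, n = 7) in WT hearts, a 1.35-fold difference by limma (adjusted p = 0.0437). The call was close to the threshold: limma's adjusted p was 0.151, 0.104, 0.108 and 0.0658 without Adamts16+/- library 1, 2, 3 or 4. Leaving out WT library 1, 2, 3 or 5 gave 0.0704, 0.0591, 0.0538 and 0.0792, and leaving out Adamts16+/H355Q library 1, 3 or 4 gave 0.0551, 0.0520 and 0.0545, which share the estimate of spread. Without WT libraries 1 to 4 the difference was 0.26 (limma adjusted p = 0.0836), and without WT libraries 5 to 7 it was 0.56 (limma adjusted p = 0.0387). The call was also lost with no filter (limma adjusted p = 0.0933) and with only Adamts16+/- and WT libraries fitted (limma adjusted p = 0.0776), and it stood in 12 of 27 alternatives.

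Jun, the main partner of Fos, had 17.8, 17.1, 15.6 and 16.1 FPKM across Adamts16+/- libraries 1 to 4, against 11.8, 13.5 and 16.0 FPKM (lowest, median, highest) in WT libraries. As with Myc, WT library 6 alone reached into the Adamts16+/- range. The log2 difference was 0.30 ± 0.083 (SE) and did not pass the test (limma adjusted p = 0.065), although it did without WT library 6 (limma adjusted p = 0.0413). Ier2, induced by serum along with Fos and Jun, was at 11.1, 10.1, 11.9 and 10.2 FPKM in Adamts16+/- libraries, and at 7.86, 8.98 and 10.6 FPKM (lowest, median, highest) in WT libraries. The ranges overlapped, and the difference of 0.25 ± 0.092 (log2, SE) did not pass (limma adjusted p = 0.143).

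The other members that were tested did not pass in this comparison. Egr1, a zinc finger factor induced through SRF, was at 3.68, 4.14, 3.68 and 2.93 FPKM in Adamts16+/- libraries and at 2.31, 2.91 and 3.93 FPKM (lowest, median, highest) in WT libraries, a log2 difference of 0.21 with a 95% interval from -0.052 to 0.48. Egr1 split WT without overlap, at 2.31 to 2.91 FPKM in libraries 1 to 4 and 3.05 to 3.93 FPKM in libraries 5 to 7. The difference was 0.36 (limma adjusted p = 0.14) without WT libraries 5 to 7 and 0.014 (limma adjusted p = 0.952) without WT libraries 1 to 4. Junb, which restrains Jun in many settings, differed by 0.17 (interval -0.079 to 0.42) and Jund by 0.17 (interval -0.17 to 0.52). Atf3, a factor raised by many kinds of cell stress, differed by 0.28 (interval -0.058 to 0.61). Fos differed by -0.11 (interval -0.64 to 0.42), the widest interval of the 8. The intervals of Egr1, Jund and Atf3 include the difference found for Myc, and those of Junb and Fos end just below it.

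Fosb and Egr2 were compared with a two-sided exact permutation test, unadjusted. Fosb was at 0.147, 0.108, 0.1097 and 0.131 FPKM in Adamts16+/- libraries, at 0.0883, 0.0935, 0.107 and 0.0944 FPKM in Adamts16+/H355Q libraries, and at 0.0547, 0.0944 and 0.143 FPKM (lowest, median, highest) in WT libraries. The exact permutation p of Adamts16+/- was 0.0545 against WT and 0.0286 against Adamts16+/H355Q, the smallest that 4 libraries against 4 can give. These levels stand for only 17 to 46 implied fragments per library. Egr2, at 19 to 41 implied fragments, gave an exact permutation p of 0.676 for Adamts16+/- against WT, 0.473 for Adamts16+/H355Q against WT and 0.371 between the genotypes.

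In Adamts16+/H355Q hearts 0 of the 8 tested members passed against WT in limma, where 0.376% of all genes were called, 0.119% higher and 0.257% lower. None of the 10 members had libraries that did not overlap, against 2.65% of tested genes. With 1 library left out, the number of all genes called, 57, ranged from 21, without Adamts16+/H355Q library 3 or 4, to 1416, without WT library 7. At an unadjusted p under 0.05 there were 2, Atf3 and Jund, of 8 members, near the share of 18.3% over all genes, and the same pair was called with limma array weights. The median log2 difference of the 8 members was -0.029, against 0.024 over all genes, with 4 of 8 above 0.

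Atf3 had 7.12, 3.54, 5.85 and 5.18 FPKM across Adamts16+/H355Q libraries 1 to 4, against 2.82, 3.52 and 4.41 FPKM (lowest, median, highest) in WT libraries. Libraries 1, 3 and 4 lay above every WT library, and library 2 lay near the WT median. The means were 5.43 ± 1.49 FPKM (SD, n = 4) in Adamts16+/H355Q hearts and 3.57 ± 0.63 FPKM (SD, n = 7) in WT hearts, a log2 difference of 0.52 ± 0.16 (SE; limma adjusted p = 0.121). It passed without WT library 7 (limma adjusted p = 0.0415) and, at 0.59, without WT libraries 5 to 7 (limma adjusted p = 0.0262). The 12 genes fixed for the integrated stress response, the pathway in which ATF4 acts upstream of Atf3, had 10 tested and 0 called in this comparison. Their median was -0.019, with 4 at an unadjusted limma p under 0.05, against 18.3% of all genes. Without WT library 7, 2 of these stress response genes were called, when 1416 of all genes were called.

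Jund was at 24.1, 18.9, 22.0 and 15.8 FPKM in Adamts16+/H355Q libraries, and at 18.3, 26.3 and 36.6 FPKM (lowest, median, highest) in WT libraries. WT libraries 4, 5 and 7 lay within the Adamts16+/H355Q range. The log2 difference was -0.38 ± 0.16 (SE; limma adjusted p = 0.239), and it was -0.56 (limma adjusted p = 0.0182) without WT libraries 5 to 7 and -0.13 (limma adjusted p = 0.778) without WT libraries 1 to 4. An antisense gene, Gm11175, covers 52.6% of the annotated exonic length of Jund on the opposite strand and averaged 0.02 FPKM. Whether reads were counted by strand is not given in the sources used here.

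Fos varied more within genotypes than any other member. Adamts16+/- libraries 1 to 4 held 1.43, 1.28, 1.19 and 1.39 FPKM. In Adamts16+/H355Q libraries 1 to 4 the values were 1.39, 1.205, 3.04 and 2.16 FPKM. Those of WT libraries 1 to 7 were 0.949, 0.978, 1.07, 0.978, 2.83, 2.01 and 2.23 FPKM. The high libraries were thus WT 5 to 7 and Adamts16+/H355Q 3 and 4, and the Adamts16+/- libraries lay between both parts of WT. The log2 difference of Adamts16+/H355Q from WT was 0.26 ± 0.25 (SE; limma adjusted p = 0.603). It was 0.65 (limma adjusted p = 0.0236) without WT libraries 5 to 7 and -0.27 (limma adjusted p = 0.649) without WT libraries 1 to 4. The difference of Adamts16+/- from WT likewise was 0.28 (limma adjusted p = 0.45) without WT libraries 5 to 7 and -0.64 (limma adjusted p = 0.0573) without WT libraries 1 to 4, so the sign depended on which part of WT was used.

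Values of other tissues moved with part of this pattern. Summed liver markers (Alb, Afp, Apoa1, Apoa2, Ttr and Serpina1a) reached 30.5 to 46.6 FPKM in WT libraries 5 to 7, against 4.62 to 14.98 FPKM in WT libraries 1 to 4, and all 6 were above 0 in every library. Summed neutrophil markers (S100a8, S100a9, Ly6g, Mpo and Elane) reached 7.40 to 12.6 FPKM in WT libraries 5 to 7, against 1.26 to 2.09 FPKM in WT libraries 1 to 4, with Ly6g listed at 0 in 12 of 15 libraries. In Adamts16+/H355Q libraries 3 and 4, where Fos was high, the liver sum was only 11.6 and 9.01 FPKM and the neutrophil sum 3.05 and 1.77 FPKM. Their part in the level of Fos was not tested. Lung markers (Nkx2-1, Sftpc, Sftpb, Sox2 and Epcam) summed to 88.9 FPKM in WT library 7 and at most 15.5 FPKM in any other. Thymus markers (Ptcra, Rag1, Cd3e, Cd3g and Foxn1) summed to 18.1 FPKM in WT library 7. Adamts16+/H355Q library 2 held 14.9 FPKM of these and library 4 held 6.89 FPKM. Adamts16+/- library 1 held 2.29 FPKM and library 2 held 3.90 FPKM. All others held at most 0.0762 FPKM. Their part in results without WT library 7 was not tested. In bulk tissue, fewer cells of a type and less RNA per cell cannot be told apart.

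**Figure D2:**
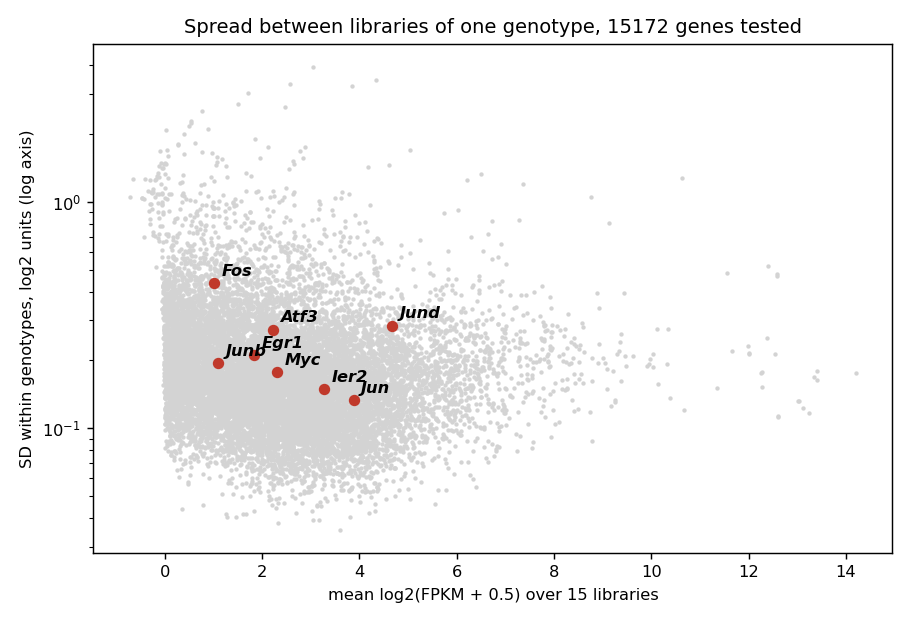
SD of log2(FPKM + 0.5) within genotypes (vertical log axis, in log2 units) against the mean level over 15 libraries, with 1 grey point per tested gene and the 8 tested members in red. Fos stands at an SD of 0.44, against a median of 0.16 over all 15172 genes, and Jun, at 0.13, lies below that median.

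The residual SD of Fos, 0.44 on the log2 scale, was larger than that of 94.8% of the tested genes, against a median over all genes of 0.16. Within the Adamts16+/- libraries alone its SD was only 0.088, against 0.48 in Adamts16+/H355Q and 0.51 in WT libraries. Jund, at 0.28, and Atf3, at 0.27, stood above 84.7% and 83.1% of genes. Egr1 (0.21), Junb (0.19) and Myc (0.18) were nearer to the median, and Ier2 (0.15) and Jun (0.13) were below it. The SD depends on the level, and among the genes of nearest level Fos stood above 92%, Jund above 91.5%, Atf3 above 87.6%, Egr1 above 73.6%, Myc above 63.4%, Ier2 above 55.1%, Junb above 54.6% and Jun above 41.3%. As a group, then, the members did not share one level of variability.

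Between the genotypes, Myc and Ier2 were higher in Adamts16+/- than in Adamts16+/H355Q hearts. Of the 8 tested members 2 were called, both higher, where 10.04% of all genes were called, 5.71% higher and 4.33% lower. With 1 library left out, the number of all genes called, 1524, ranged from 286, without Adamts16+/H355Q library 2, to 2483, without WT library 7. The median of the 8 was 0.32, against -0.017 over all genes, with 6 of 8 above 0. In 5 of the 10 members, Fosb, Jun, Jund, Ier2 and Myc, the libraries of both genotypes did not overlap, against 25.7% of the tested genes.

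Myc averaged 5.80 ± 0.50 FPKM in Adamts16+/- hearts and 3.94 ± 0.36 FPKM in Adamts16+/H355Q hearts (SD, n = 4 each). The Adamts16+/H355Q libraries held 3.84, 4.36, 3.51 and 4.05 FPKM, all under the lowest Adamts16+/- library at 5.22 FPKM. The log2 difference was 0.50 ± 0.12 (SE; limma adjusted p = 0.0216). Leaving out Adamts16+/- library 1, 2 or 3 gave a limma adjusted p of 0.0669, 0.0536 and 0.0562, and leaving out Adamts16+/H355Q library 1 or 3 gave 0.0521 and 0.0509.

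Ier2 was at 11.1, 10.1, 11.9 and 10.2 FPKM in Adamts16+/- libraries and at 8.64, 7.499, 8.72 and 7.79 FPKM in Adamts16+/H355Q libraries, with no overlap. The log2 difference was 0.39 ± 0.10 (SE; limma adjusted p = 0.0321), a 1.31-fold difference. Leaving out Adamts16+/- library 1, 2 or 3 gave a limma adjusted p of 0.0853, 0.0611 and 0.0872, and leaving out Adamts16+/H355Q library 1, 2 or 4 gave 0.0546, 0.0951 and 0.0752. Neither call held when genes with no minimum level were also tested (limma adjusted p = 0.0539 for Myc and 0.0725 for Ier2).

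Jund, Jun and Egr1 had differences of the same sign that did not pass the test. Jund was at 32.9, 28.3, 29.8 and 27.1 FPKM in Adamts16+/- libraries, all above the 4 Adamts16+/H355Q values given above, and differed by 0.55 ± 0.18 (log2, SE; limma adjusted p = 0.0671). Jun was at 14.03, 12.2, 15.6 and 12.6 FPKM in Adamts16+/H355Q libraries, of which library 3 was close to the lowest Adamts16+/- library, and differed by 0.29 ± 0.094 (limma adjusted p = 0.0625). With a fit of these genotypes alone both passed (limma adjusted p = 0.0156 for Jund and 0.0418 for Jun). Egr1, at 2.28, 2.54, 3.36 and 2.64 FPKM in Adamts16+/H355Q libraries, differed by 0.36 (limma adjusted p = 0.104). Fos and Atf3 had differences of the other sign, at -0.37 and -0.24, with 95% intervals that include 0.

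**Figure D3:**
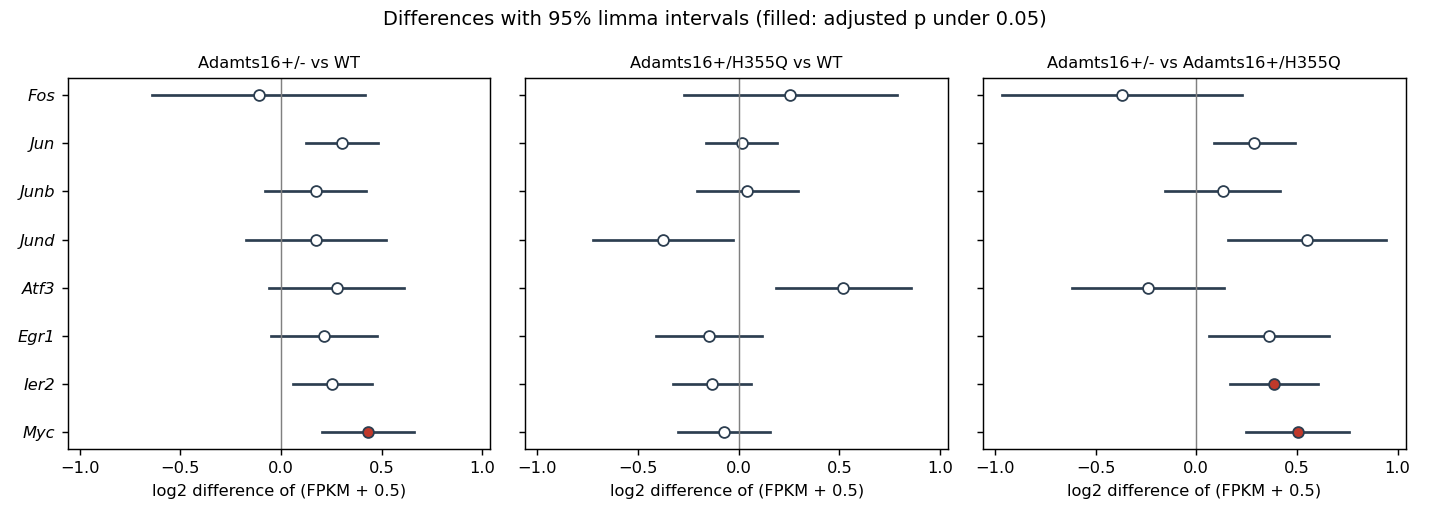
Log2 differences of the 8 tested members (points) with 95% limma intervals (lines) in the 3 comparisons, where filled points passed an adjusted p of 0.05. Myc passed against WT and between the genotypes, Ier2 between the genotypes, and the comparison of Adamts16+/H355Q with WT has no filled point.

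Members did not rise and fall as a block across libraries. As a description over the 15 libraries, which share genotype and depth, Pearson's r of log2 levels was 0.78 between Jun and Ier2, 0.76 between Ier2 and Myc and 0.74 between Jund and Ier2. Fos and Jun had an r of -0.0018 and Fos and Jund of -0.57. The r of Fos and Egr1 was 0.40. Both were higher in WT libraries 5 to 7 than in WT libraries 1 to 4 without overlap, a split that removing genotype means leaves in. With genotype means removed, Fos and Egr1 had the highest r of any pair of members, 0.75, while Jun and Atf3 had 0.65. Junb then had its highest r with Jund, 0.59, against 0.60 with Jun before genotype means were removed. Junb shares 173 exonic bases, 7.5% of its exonic length, with the opposite-strand gene Prdx2, which averaged 70.8 FPKM. Reads of both genes there cannot be told apart unless counting used strand.

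**Figure D4:**
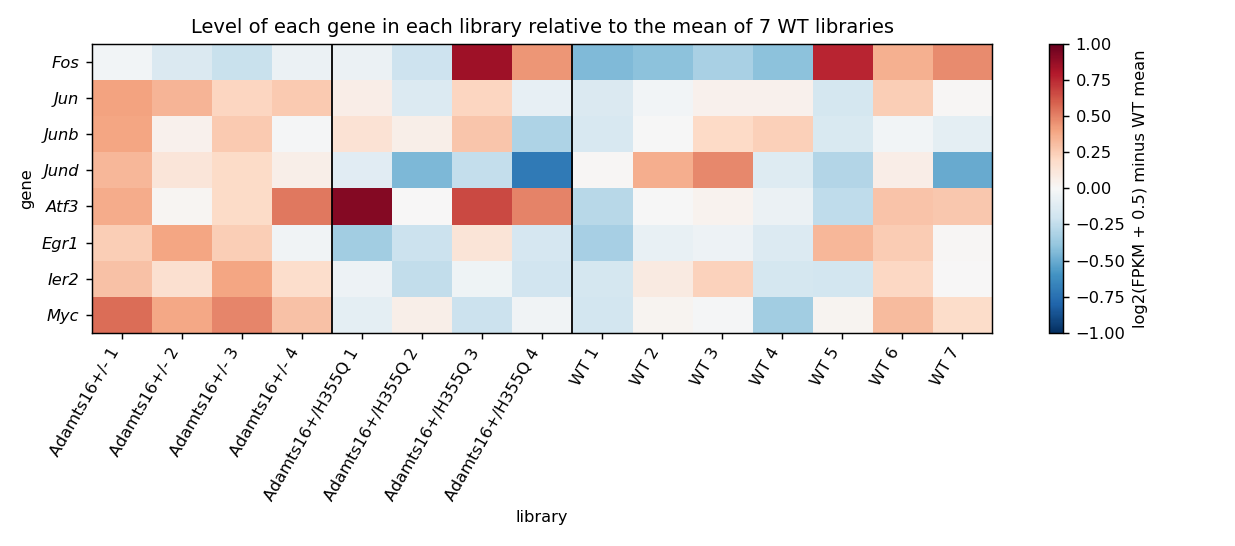
Log2(FPKM + 0.5) of each tested member (rows) in each library (columns, by genotype) minus its mean over the 7 WT libraries, from blue (lower) to red (higher). The Fos row is red in WT libraries 5 to 7 and Adamts16+/H355Q libraries 3 and 4, while the Myc, Ier2 and Jun rows are red across the Adamts16+/- libraries.

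The genes most like Fos over the 15 libraries, among 13156 with a mean of at least 1 FPKM, were Snrnp35, which encodes a protein of the minor spliceosome (r = 0.89), the microRNA genes Mir322 (0.88) and Mir503 (0.85), Nelfb, a subunit of a complex that pauses RNA polymerase II (0.84), and Hmces, which shields abasic sites in DNA (0.84). Mir322 was at 3.38, 7.25, 9.89 and 9.18 FPKM in Adamts16+/H355Q libraries 1 to 4. WT libraries 5 to 7 held 7.02 to 10.1 FPKM of it, against 0.802 to 1.38 FPKM for WT libraries 1 to 4. Mir322 departed from the pattern of Fos in Adamts16+/H355Q library 2, where Mir322 was high and Fos was at 1.205 FPKM. The members were left out of this search and could not appear in it. No immediate early gene outside the members was among the 5 genes most like Fos. The genes most like Egr1 were Jdp2, a bZIP repressor that dimerises with Jun (0.82), Cpne2 (0.81), the DNA repair gene Xrcc1 (0.81), Prap1 (0.81) and Crabp1 (0.79). The genes most like Myc were Xrcc1 (0.86), Nop16, a nucleolar protein gene and known target of MYC (0.86), Ap3b1 (0.84), Gm9531 (0.84) and Clint1 (0.83).

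Among 38 other immediate early genes, 32 were tested and 2 were higher in Adamts16+/- than in WT hearts, with a median of 0.08. At an unadjusted p under 0.05 there were 9 of the 32, against 19.6% of all genes. Trib1, a pseudokinase gene, was at 2.53 ± 0.20 FPKM (SD, n = 4) in Adamts16+/- hearts and 1.77 ± 0.21 FPKM (SD, n = 7) in WT hearts (limma adjusted p = 0.0174), without overlap. Ctgf, a secreted matricellular factor gene, was at 21.5 ± 2.27 FPKM in Adamts16+/- hearts and 13.6 ± 1.18 FPKM in WT hearts (limma adjusted p = 0.0191). The count was 0 without Adamts16+/- library 1 and 1 without library 3, without library 4, and without WT libraries 5 to 7. It was 7 without WT libraries 1 to 4, where the count over all genes also rose, as given at the end. Against WT, Adamts16+/H355Q hearts had 0 called by limma in this list (median 0.04) and 12 at an unadjusted p under 0.05, against 18.3% of all genes. It had 1 called without Adamts16+/H355Q library 2, 6 without WT library 7, when 1416 of all genes were called, and 12 without WT libraries 5 to 7, when 3277 were called.

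Between the genotypes 5 of the 32 were called, 4 higher and 1 lower in Adamts16+/- hearts, with a median of 0.08, where 10.04% of all genes were called. Sik1, a kinase gene induced by cyclic AMP, was at 8.66 ± 0.38 FPKM in Adamts16+/- and 5.85 ± 0.54 FPKM in Adamts16+/H355Q hearts (SD, n = 4 each; limma adjusted p = 0.00911). Zfp36l1, which encodes an mRNA decay factor, was at 52.3 ± 3.33 FPKM in Adamts16+/- and 36.9 ± 7.12 FPKM in Adamts16+/H355Q hearts (limma adjusted p = 0.0185). Trib1 was also higher, by 0.36 (limma adjusted p = 0.0234). The remaining 2 calls, outside the 3 smallest p-values, were Phlda1, higher by 0.57, and the phosphatase gene Dusp2, which fell by 0.48. The count was 1 to 3 without Adamts16+/- library 1, 2 or 3 or any single Adamts16+/H355Q library, and 7 without Adamts16+/- library 4.

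Upstream of the members, 17 kinase and SRF factor genes were tested and 0 passed in either comparison with WT. At an unadjusted limma p under 0.05 there were 2 for Adamts16+/- and 5 for Adamts16+/H355Q, against 19.6% and 18.3% of all genes. Without WT library 7, 2 were called in Adamts16+/H355Q hearts, when 1416 of all 15172 genes were called. Without WT libraries 5 to 7 there were 4, when still more of all genes were called, as given above. In Adamts16+/- hearts 3 were called without WT libraries 1 to 4, where the count over all genes also rose, as given at the end. These list counts are thus not set apart from the rise over all genes. Between the genotypes 3 of the 17 were called, all higher in Adamts16+/- hearts, with a list median of 0.17, where 10.04% of all genes were called. Srf, the factor at the serum response element of Fos and Egr1, was at 23.4, 22.9, 29.3 and 22.6 FPKM in Adamts16+/- libraries and at 20.3, 16.2, 16.8 and 15.4 FPKM in Adamts16+/H355Q libraries (log2 difference 0.50, limma adjusted p = 0.0388). Elk3, an SRF partner, was higher by 0.31 (limma adjusted p = 0.0286) and Rps6ka1, a kinase gene of the ERK pathway, by 0.32 (limma adjusted p = 0.0311). This count was 0 without Adamts16+/- library 1, 2 or 3 or Adamts16+/H355Q library 2, 3 or 4, and 1 without Adamts16+/H355Q library 1. It was 5 without WT libraries 1 to 4 and 6 without WT libraries 5 to 7. Of the bZIP partners 13 were tested and Jdp2 alone was called, higher by 0.40 between the genotypes (limma adjusted p = 0.0338), and not without Adamts16+/- library 1, 2 or 3 or Adamts16+/H355Q library 1, 2 or 4 (0 called). That count was 2 without WT library 7, when 2483 of all genes were called, 2 without WT libraries 1 to 4, and 3 without WT libraries 5 to 7. The EGR corepressor genes Nab1 and Nab2 had 0 calls in all 3 limma comparisons (1 at an unadjusted p under 0.05 for Adamts16+/- against WT, 0 in the others).

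Among the 10 tested genes of the MYC network, Mycn and Mlxip were higher in Adamts16+/- than in WT hearts and 0 were lower, with a list median of 0.14. Over all genes 1.57% were called higher and 1.18% lower in this comparison. Mycn, the MYC paralogue that the embryonic heart muscle depends on, was at 9.80, 8.47, 9.05 and 10.3 FPKM in Adamts16+/- libraries and at 5.55 to 8.05 FPKM in WT libraries, without overlap (log2 difference 0.48 ± 0.10, SE; limma adjusted p = 0.0267). Mlxip, a glucose-sensing relative, differed by 0.34 (limma adjusted p = 0.044). Of 16 MYC target genes 3 were higher and 0 lower: Nolc1, a nucleolar phosphoprotein gene (21.1 ± 2.05 FPKM in Adamts16+/- and 16.3 ± 0.92 FPKM in WT hearts, limma adjusted p = 0.0238), Cad, for pyrimidine synthesis (limma adjusted p = 0.0258), and Ddx21, a nucleolar helicase gene (limma adjusted p = 0.0453). The list median was 0.16 in Adamts16+/- and 0.12 in Adamts16+/H355Q hearts against WT. For Adamts16+/H355Q limma called 0 of the 16, with 3 at an unadjusted p under 0.05, against 18.3% of all genes. In Adamts16+/H355Q hearts 4 targets were called without WT library 7, when 1416 of all 15172 genes were called. Without WT libraries 5 to 7 there were 6, when still more of all genes were called, as given above. The target calls are not shown to be particular to Adamts16+/- hearts, nor are these counts set apart from the rise over all genes. The count of network genes was 0 without WT library 5 or any single Adamts16+/- library. It was 1 without WT library 1, 2, 3, 4 or 6 or any single Adamts16+/H355Q library, and without WT libraries 5 to 7. The count of targets was 0 without Adamts16+/- library 1 or 2 and without WT libraries 5 to 7, and 1 without Adamts16+/- library 3 or 4 or WT library 5. Between the genotypes Nolc1 was the only target called, higher by 0.37 in Adamts16+/- hearts (limma adjusted p = 0.0201). There 0 were called without Adamts16+/- library 1, 2 or 3 or Adamts16+/H355Q library 1 or 2. The count was 2 without WT library 7, when 2483 of all genes were called, and 5 without WT libraries 5 to 7.

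Heat shock genes, which stress and tissue handling also induce, were among the genes that differed. Of 9 tested, Hspa1a, Hsph1 and Hspa1b were higher in Adamts16+/- than in WT hearts, with a list median of 0.21, where 1.57% of all genes were called higher. Hspa1a was at 1.34 ± 0.21 FPKM (SD, n = 4) in Adamts16+/- and 0.815 ± 0.098 FPKM (SD, n = 7) in WT hearts (limma adjusted p = 0.0149). Hsph1 was at 9.12 ± 0.93 FPKM in Adamts16+/- and 5.61 ± 0.77 FPKM in WT hearts (limma adjusted p = 0.0151). Hspa1a and Hspa1b are near-identical copies whose reads can be split between them. Both were also higher in Adamts16+/- than in Adamts16+/H355Q hearts, by 0.48 for Hspa1a (limma adjusted p = 0.0139) and 0.41 for Hspa1b (limma adjusted p = 0.0273), with 1 called without Adamts16+/- library 1, 2 or 3 or Adamts16+/H355Q library 1, 2 or 4 and 3 called without WT libraries 1 to 4. Against WT, Adamts16+/H355Q hearts had 0 of the 9 called by limma, with a median of 0.24. At an unadjusted limma p under 0.05 there were 4, against 18.3% of all genes. In that comparison 5 were called without WT library 7, when 1416 of all genes were called. Without WT libraries 5 to 7 there were 6, when still more of all genes were called, as given above. The summed level of the 9 genes was 764 to 842 FPKM in Adamts16+/- libraries, 777 to 927 FPKM in Adamts16+/H355Q libraries and 622 to 921 FPKM in WT libraries, where WT library 7 alone made the ranges overlap. The other 6 WT libraries held 622 to 745 FPKM, below both changed genotypes, but WT library 7 was set aside after its value was seen. That separation follows from the choice and is not a result of its own. WT library 7 also had the highest lung and thymus marker sums, given above, and their part in its heat shock level was not tested. The count of 3 was 0 without Adamts16+/- library 1, and 1 without Adamts16+/- library 2 and without WT libraries 5 to 7. In the integrated stress response list Trib3 alone of 10 was higher in Adamts16+/- than in WT hearts (log2 difference 0.62, limma adjusted p = 0.0162). It was not called without Adamts16+/- library 1 or without WT libraries 5 to 7 (0 called). Without WT libraries 1 to 4 there were 4 called, where the count over all genes also rose, as given at the end. The part of these genes in the levels of Myc, Jun and Ier2 was not tested.

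Among markers of other cell types, endothelial genes (Pecam1, Cdh5, Tie1, Kdr and Tek) had a summed level of 155 to 164 FPKM in Adamts16+/- libraries, 120 to 127 FPKM in Adamts16+/H355Q libraries, 170 to 177 FPKM in WT libraries 1 to 4 and 106 to 143 FPKM in WT libraries 5 to 7. The Adamts16+/- libraries thus lay above the Adamts16+/H355Q libraries and below WT libraries 1 to 4. Between the changed genotypes 0 of these 5 genes was called by limma (4 at an unadjusted p under 0.05, against 28.9% of all genes). Skeletal muscle genes (Myog, Myod1, Acta1, Myf5 and Myh3) summed to 62.7 to 94.9 FPKM in Adamts16+/-, 43.8 to 71.5 FPKM in Adamts16+/H355Q and 27.7 to 57.5 FPKM in WT libraries. Acta1 made up most of these sums, at 61.7 to 91.4 FPKM in Adamts16+/- libraries. Of the 3 genes that were tested, Myog and Acta1 were called higher in Adamts16+/- hearts against WT, and Myog also between the genotypes (1.46, limma adjusted p = 0.0246). Over all genes 2.75% and 10.04% were called in these comparisons. Myog was at 0.528, 5.20, 1.57 and 3.02 FPKM in Adamts16+/- libraries 1 to 4, of which library 1 lay within the WT range of 0.355 to 0.851 FPKM. Of 7 erythroid genes Slc4a1, for the anion exchanger of red cells, was called higher in Adamts16+/- hearts against WT (0.87, limma adjusted p = 0.0228) and against Adamts16+/H355Q (1.14, limma adjusted p = 0.0102). The erythroid sum was 15488 to 24989 FPKM in Adamts16+/-, 11465 to 31101 FPKM in Adamts16+/H355Q and 15508 to 32339 FPKM in WT libraries. Of the 6 cardiomyocyte genes only Myh6 was called higher in Adamts16+/- than in Adamts16+/H355Q hearts (0.57, limma adjusted p = 0.0307), where 10.04% of all genes were called. The median of the 6 was 0.016, with 3 above 0. Macrophage markers summed to 29.7 to 41.4 FPKM in Adamts16+/-, 30.2 to 38.9 FPKM in Adamts16+/H355Q and 32.9 to 48.8 FPKM in WT libraries, with 0 of 6 called in any comparison by limma. The part of these cell types in the levels of the members was not tested.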

How the data were processed

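RNA was isolated with TRIzol, and a VAHTS Universal V6 kit was used for the libraries, per the labels' protocols. The tools named by the submitters' processing notes are HISAT2, HTSeq, fastp, DESeq2 and R 3.2.0, with no role given. The authors deposited FPKM per gene and library. The sources used here do not say which tool, build or annotation gave them. Because these values are not counts, a count model was not applied. With GENCODE vM21 lengths, 58.6% to 65.3% of low values were whole multiples of 1 fragment within 0.1, so whole reads were not recovered and implied depths are estimates.

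Symbols were matched to 55154 of 55335 identifiers. limma 3.58.1 in R 4.3.3 was fitted on log2(FPKM + 0.5), with a variance trend, to the 15172 genes whose mean reached 0.5 FPKM. All 15 libraries entered, with genotype as the only term and Benjamini-Hochberg adjustment. The procedure was tested on simulated data. Members, lists and alternatives were chosen with earlier results of these data known. From each list up to 3 called genes with the smallest adjusted p are named, and for Fos, Egr1 and Myc the 5 genes outside the members with the highest Pearson r. Phlda1, Dusp2, Gm11175, Prdx2, Adamts16, Myog, Acta1, Slc4a1 and Myh6 were added after their values were seen. Promoters were read from RefSeq for 7 of the 10 members. Alternatives changed the pseudocount, filter, scaling, variance model, groups fitted, replicate block and libraries left out.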

Additional observations from a re-analysis of the deposited data

Results flagged for a closer look

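In 126 groups of libraries, each a named gene in 1 genotype, a single library stood far from the others of its group in 4. The measure was the gap from the highest or lowest library to its neighbour over the range of the group, set against Dixon's critical value at the 95% level. By its construction that level marks about 1 in 20 groups by chance. Srf was at 29.3 FPKM in Adamts16+/- library 3, and Ddx21 at 19.8 FPKM and Hsph1 at 7.2 FPKM in WT library 7. Crabp1 was at 9.48 FPKM in WT library 6. None of the 10 members had such a library.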

How the results depend on the processing

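The log2 differences of the 8 tested members kept their sign and their side of the threshold in 574 of 648 recalculations, and 19 reversed. The members called in Adamts16+/- against WT (1) numbered 0 with no filter, with only the 2 groups compared, with the replicate block and without WT libraries 1 to 4, 2 with array weights, and 0 to 2 with each library left out. In Adamts16+/H355Q against WT (0) they numbered 2 with array weights, 3 (Atf3, Fos and Jund) with the replicate block and without WT libraries 5 to 7, and 0 to 1 with each library left out. Between the genotypes (2) they numbered 0 with no filter, 3 with quantile normalization (Jun added) and without WT libraries 1 to 4 (Jund added), 4 with array weights and with only the 2 groups compared, 5 with the replicate block and without WT libraries 5 to 7, and 0 to 3 with each library left out. Same-numbered libraries had correlations of their deviations from -0.23 to 0.21, and 0, 1 and 1 of 4 libraries correlated best with their own number, so they share only a number. The replicate block uses nothing from WT libraries 5 to 7, whose numbers occur once. With the block and without those libraries, Adamts16+/- against WT gave 0.28 for Fos and -0.0087 for Jund, and Adamts16+/H355Q against WT gave -0.026 for Junb and 0.059 for Myc. Fos in Adamts16+/- against WT was 0.058 with array weights, and -0.19 to 0.014 with each library left out. Fos in Adamts16+/H355Q against WT was -0.27 without WT libraries 1 to 4. Jun in Adamts16+/H355Q against WT was -0.011 with median of ratios scaling, -0.025 with quantile normalization, -0.013 without WT libraries 1 to 4 and -0.051 to 0.064 with each library left out, and Junb was -0.037 to 0.16. The cause of these changes was not tested, except that without a filter more genes enter the adjustment. All genes called numbered 2896, 417 and 59 in Adamts16+/- against WT without WT libraries 1 to 4, with all libraries and without WT libraries 5 to 7, and 18, 57 and 3277 in Adamts16+/H355Q against WT. Low fragment numbers limit Fosb and Egr2.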
